A study of Oryza sativa with 20 samples.

Results

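The CKX genes of rice encode cytokinin oxidase/dehydrogenases, and their transcripts were followed in stem bases of crl1 mutant seedlings after induction of CRL1. The members were all genes whose symbol or RefSeq synonym is CKX or OsCKX followed by a number, with an upper limit of 10. The RefSeq table held 7 such genes, of which 5 were paired with a probe set on the array, CKX1, CKX3, CKX4, CKX5 and CKX11, among 17905 genes paired with a probe set of their own. CKX2 and CKX9 had no listed probe set and were not analysed here. CKX11 had 2 probe sets and the others 1 each, so the values below come from 6 probe sets.

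Cytokinin oxidase/dehydrogenases break cytokinins down irreversibly by cleaving off their side chain, so that the activity of these enzymes helps set how much active hormone a tissue holds. In rice, auxin promotes and cytokinin restrains the start of crown roots, the shoot-borne roots that form most of the root system. Rice plants with raised CKX4 expression are known to form more crown roots, CKX2 is the grain number locus Gn1a, and CKX11 has been linked to leaf senescence and grain number. CRL1 is a LOB-domain transcription factor that acts downstream of auxin and is needed for crown root formation.

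All plants were crl1 mutants of the cultivar Taichung 65, so that no sample had a wild-type CRL1 background. In the 3 CRL1 lines, which were independent single-locus homozygous T2 lines, dexamethasone switched on a CRL1 cDNA carried by the pINDEX2 vector. They had been picked for CRL1 induction and for crown roots formed after dexamethasone. The 2 control lines were the untransformed mutant (control line 1) and 1 line with the empty pINDEX2 vector (control line 2). Seedlings 8 days old received 10 µM dexamethasone or ethanol as mock, and stem bases were taken 4 h and 8 h later. Each of the 20 arrays held RNA pooled from 20 stem bases of 1 line, which gave 3 arrays for each CRL1 group (dexamethasone or mock, 4 h or 8 h) and 2 for each control group.

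Signals are MAS5 values on a linear scale on which every array has a trimmed mean of 100, and the median probe set of an array lay at 10.1 to 15.5. Log2 changes are differences of log2(signal + 1.7), with standard errors from limma, and p-values were adjusted by Benjamini-Hochberg over 32836 tested probe sets, with 0.05 as the threshold for a call. That fit pools the spread of all 20 arrays, and the standard errors of the CKX changes in the CRL1 lines were smaller when either control line was left out. No probe set was matched to CRL1, and its own transcript was therefore not measured here. Mock arrays of control line 1 stood apart: against it alone, mock arrays of the CRL1 lines had 2725 probe sets called higher and 2987 called lower, and against control line 2 alone 6 higher and 2 lower. Differences of CRL1 lines from control lines at 8 h and on mock arrays are therefore also given without control line 1. A fit with 1 control line left holds no spread between control lines, and takes that line to vary like the other groups. Of the tissue markers, all 6 shoot meristem and stem genes measured (OSH1, OSH3, OSH6, OSH43, OSH71 and FON1) and 3 of 4 leaf genes measured were above the array medians often enough to be tested. In whole stem bases, fewer cells of a type and less RNA per cell cannot be told apart.

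CKX5 (LOC4327887) was the CKX transcript that rose after dexamethasone in the CRL1 lines. At 8 h its signal was 262.9, 573.3 and 187.5 on the dexamethasone arrays of CRL1 lines 1, 2 and 3, against 35.2, 44.2 and 65.0 on their mock arrays. The lowest dexamethasone value was far above the highest mock value, and line 2 showed the widest gap. The change was 2.66 ± 0.66 on the log2 scale (SE, 3 lines; 95% interval 1.26 to 4.06; adjusted p = 0.0236, limma), a 6.34-fold rise. Over all probe sets 6.38% were called at 8 h, with 3.47% higher and 2.91% lower.

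At 4 h CKX5 had 206.0, 94.7 and 116.7 after dexamethasone, against 38.9, 30.0 and 58.7 after mock. The arrays again did not overlap, although the change of 1.64 ± 0.66 did not pass the threshold (adjusted p = 0.624, limma), where 0.435% of all probe sets were called. Leaving out control line 1 narrowed the error of this change to 0.40, and its adjusted p was then 0.109. The 8 h change minus the 4 h change was 1.02 ± 0.93, within its error, and 0.00609% of all probe sets were called in that comparison. All 6 dexamethasone arrays of the CRL1 lines, at 94.7 to 573.3, lay above all 14 other arrays, at 9.0 to 93.9. The margin was narrow, at 94.7 in CRL1 line 2 at 4 h against 93.9 in control line 2 at 8 h after dexamethasone. The share of all probe sets separated in this way was not computed.

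In the control lines CKX5 went in no shared direction. At 4 h control lines 1 and 2 had 38.2 and 67.6 after dexamethasone and 25.5 and 68.5 after mock. At 8 h they had 9.0 and 93.9 after dexamethasone and 19.3 and 53.8 after mock, so that line 1 was lower and line 2 higher on the dexamethasone array. The log2 changes were 0.27 ± 0.81 at 4 h and -0.09 ± 0.81 at 8 h, and limma called none of the 4 CKX genes tested, and 0% of all probe sets, in the control lines at either time. At an unadjusted p under 0.05 these counts were also 0 of the 4 CKX genes, beside 781 of the 32836 probe sets at 4 h and 838 at 8 h.

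The response of CKX5 in the CRL1 lines minus that in the control lines was 2.76 ± 1.04 at 8 h, with a 95% interval of 0.55 to 4.97 and an adjusted p of 0.35 in limma. The unadjusted p in limma was 0.0178, where 3198 of the 32836 probe sets had an unadjusted p under 0.05. At the adjusted threshold 0.71% of all probe sets were called for this difference. It was 1.88 without control line 1 (adjusted p = 0.463) and 3.64 without control line 2 (adjusted p = 0.115). The difference at 4 h was 1.38 ± 1.04, where 0.00914% of all probe sets were called, and it was 1.66 without control line 1. The rise of CKX5 passed the threshold in the CRL1 lines, but its difference from the control lines did not.

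**Figure D1:**
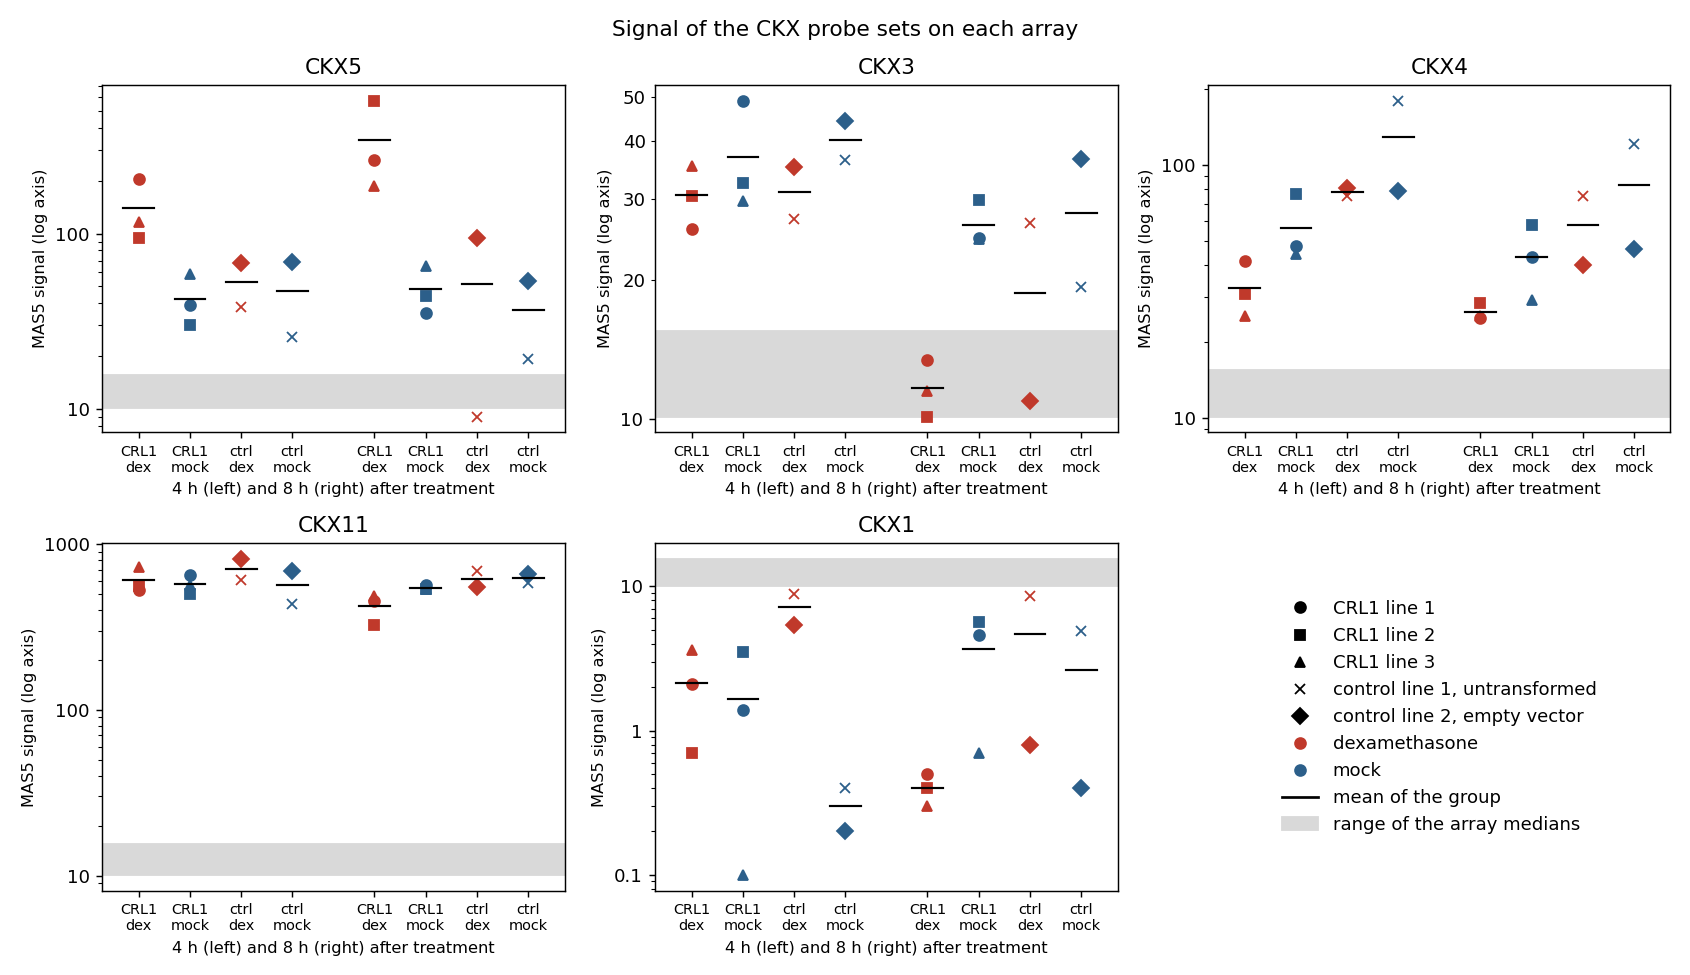
MAS5 signal (log axis) of 5 CKX genes on each of the 20 arrays, by line, treatment and time, with the group means as bars and the range of the array medians in grey; CKX11 is shown by its brighter probe set. CKX5 on the 6 dexamethasone arrays of the CRL1 lines sits at 94.7 to 573.3, above the other 14 arrays, of which the highest is at 93.9. CKX3 on the 8 h dexamethasone arrays of these lines sits at 10.1 to 13.4, within the grey band, and CKX1 stays below it everywhere.

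CKX3 (LOC4348932) fell in the CRL1 lines by 8 h. Its signal was 13.4, 10.1 and 11.5 on the dexamethasone arrays of CRL1 lines 1, 2 and 3, against 24.7, 29.8 and 24.5 on the mock arrays. The groups did not overlap, and the dexamethasone values were close to the array medians, where MAS5 signals are near the dim end. The log2 change was -1.07 ± 0.30 (SE, 3 lines; 95% interval -1.71 to -0.44; adjusted p = 0.0434, limma), a level 0.476 times that after mock.

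At 4 h CKX3 had 25.8, 30.5 and 35.4 after dexamethasone and 49.0, 32.4 and 29.7 after mock in the CRL1 lines. These ranges overlapped, and the log2 change was -0.24 ± 0.30. Control lines 1 and 2 at 4 h had 27.1 and 35.1 after dexamethasone and 36.4 and 44.3 after mock, a log2 change of -0.36 ± 0.37, within its error. The values did not overlap, but each side had only 2 arrays. The share of all probe sets so separated in the control lines was not computed. At 8 h control lines 1 and 2 had 26.6 and 10.9 after dexamethasone and 19.3 and 36.7 after mock. Control line 2 alone thus showed a lower value after dexamethasone, as low as in the CRL1 lines, and the log2 change over both lines was -0.59 ± 0.37. The CRL1 response minus the control response was -0.48 ± 0.47 at 8 h (adjusted p = 0.861, limma), and without control line 1 it turned to 0.54 (adjusted p = 0.763).

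CKX4 (LOC4326515), the member with a known role in crown root number, was lower on the dexamethasone arrays of the CRL1 lines at both times, and neither difference was called. At 4 h it had 41.5, 30.9 and 25.3 after dexamethasone, against 47.8, 76.7 and 44.2 after mock. At 8 h it had 24.8, 28.4 and 25.2 after dexamethasone, against 43.0, 57.8 and 29.3 after mock. The groups did not overlap at either time, but in line 3 at 8 h the mock value was only slightly above the dexamethasone values.

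The log2 change of CKX4 was -0.74 ± 0.37 at 4 h (95% interval -1.54 to 0.05; adjusted p = 0.883) and -0.65 ± 0.37 at 8 h (-1.44 to 0.15; adjusted p = 0.405), in limma with 3 lines. Control lines 1 and 2 had 75.3 and 80.7 after dexamethasone and 179.0 and 78.5 after mock at 4 h, and 75.5 and 40.3 after dexamethasone and 120.5 and 46.4 after mock at 8 h. Their log2 changes were -0.60 ± 0.46 and -0.43 ± 0.46, of the same sign as in the CRL1 lines. The difference between the 2 responses was -0.15 ± 0.59 at 4 h and -0.22 ± 0.59 at 8 h, with 95% intervals of -1.40 to 1.11 and -1.48 to 1.04. Without control line 1 these were -0.78 and -0.45.

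CKX11 (LOC4345764) had the highest signal of the 5 genes, although signals of different probe sets are not a scale on which genes can be ranked. At 8 h it had 450.8, 322.6 and 487.6 on the dexamethasone arrays of the CRL1 lines, against 565.8, 537.7 and 533.7 on the mock arrays. The groups did not overlap, and line 2 had the lowest dexamethasone value. The log2 change was -0.40 ± 0.19 (95% interval -0.81 to 0.02; adjusted p = 0.3, limma), and it was -0.23 without CRL1 line 2 and -0.53 without line 3. At 4 h the CRL1 lines had 529.6, 556.4 and 728.8 after dexamethasone and 645.3, 498.6 and 563.9 after mock, with overlapping ranges and a log2 change of 0.08 ± 0.19.

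In the control lines CKX11 had 601.9 and 811.3 after dexamethasone and 436.0 and 687.8 after mock at 4 h, and 687.7 and 549.3 after dexamethasone and 582.0 and 658.7 after mock at 8 h. Those ranges overlapped, with log2 changes of 0.35 ± 0.24 and -0.01 ± 0.24. The CRL1 response of CKX11 minus the control response was -0.39 ± 0.31 at 8 h (adjusted p = 0.793, limma). Without control line 1 this difference was -0.14. The second probe set of CKX11 was dim, at 2.9 to 17.9 over the 20 arrays, and had a log2 change of -0.36 ± 0.49 at 8 h in the CRL1 lines. Its dexamethasone and mock arrays overlapped at both times.

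CKX1 (LOC4325668) was at 0.1 to 8.9 and below the array median on all 20 arrays, so it was not tested. In the CRL1 lines at 8 h it had 0.5, 0.4 and 0.3 after dexamethasone and 4.6, 5.7 and 0.7 after mock. At this level no order of its values is read.

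Over the 4 CKX genes tested, 1 was called higher and 1 lower in the CRL1 lines at 8 h, beside 3.47% and 2.91% of all probe sets. The median log2 change of the 4 was -0.52, beside -0.04 for all probe sets. At 4 h limma called none of the 4, where 0.435% of all probe sets were called, and the median was -0.08 beside -0.02. At an unadjusted p under 0.05 stood 1 of the 4, beside 2023 of the 32836 probe sets. At 8 h the dexamethasone and mock arrays of the CRL1 lines did not overlap for 4 of the 4 genes, CKX5 above and CKX3, CKX4 and CKX11 below, where 24.2% of all probe sets did not overlap. At 4 h this held for 2 of the 4, CKX5 and CKX4, beside 13.9% of all probe sets. With 4 genes these shares describe the family and do not set it apart.

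**Figure D2:**
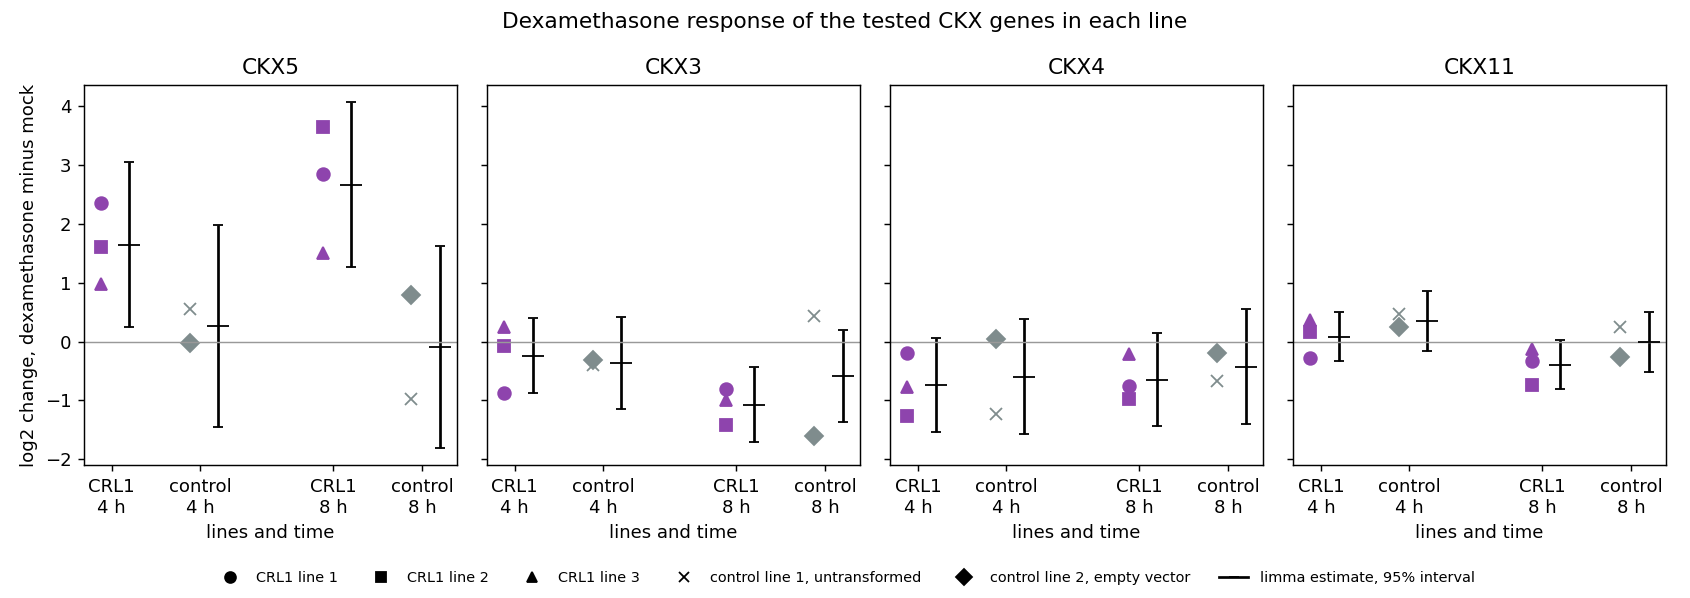
Log2 change after dexamethasone of the 4 tested CKX genes in the CRL1 lines and in the control lines at 4 h and 8 h; black dashes with bars are limma estimates with their 95% intervals and symbols are single lines. CKX5 in the CRL1 lines at 8 h, at 2.66, and CKX3 there, at -1.07, are the called values, and the single control lines lie on both sides of 0 for CKX5, CKX3 and CKX11 at 8 h.

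CKX4 had a lower mean on mock arrays of the CRL1 lines than on those of the control lines, and the size of this gap depended on the control line. It averaged 56.2 ± 17.8 at 4 h and 43.4 ± 14.3 at 8 h in the CRL1 lines (SD, n = 3), against 129 ± 71.1 and 83.5 ± 52.4 in the control lines (SD, n = 2). The log2 difference of mock CRL1 lines from mock control lines was -0.96 ± 0.32 (95% interval -1.67 to -0.25; adjusted p = 0.455, limma with line as a random block), and 0.00305% of all probe sets were called. Against control line 1 alone it was -1.59, and against control line 2 alone -0.33, with 1 line on the control side each time. The highest values were those of the untransformed line, at 75.3 to 179.0 over its 4 arrays, with 40.3 to 80.7 for the empty-vector line.

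CKX5 differed between the control lines in the other direction. The untransformed line had 9.0 to 38.2 over its 4 arrays and the empty-vector line 53.8 to 93.9. These ranges did not overlap, but each comes from 1 line only, and the share of all probe sets so separated was not computed. The 6 mock arrays of the CRL1 lines, at 30.0 to 65.0, reached into both ranges. The mock difference of CRL1 lines from control lines was 0.23 ± 0.36 for CKX5, -0.07 ± 0.14 for CKX11 and -0.08 ± 0.24 for CKX3. Without control line 1 these were -0.46, -0.28 and -0.37, beside -0.33 for CKX4. None of the 4 genes was called in this comparison, with 1, CKX4, at an unadjusted p under 0.05, beside 3532 of the 32836 probe sets.

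Time alone moved no CKX gene past the threshold. Between mock arrays at 8 h and at 4 h, with each line weighted equally, the log2 differences were -0.49 ± 0.23 for CKX3, -0.48 ± 0.29 for CKX4, -0.03 ± 0.51 for CKX5 and 0.04 ± 0.15 for CKX11. In limma 0 of the 4 were called or had an unadjusted p under 0.05, and 0.0396% of all probe sets were called. An unadjusted p under 0.05 was found for 1676 of the 32836 probe sets.

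When the 8 groups are put in order of mean signal, CKX5 was highest in the CRL1 lines at 8 h after dexamethasone, at 341 ± 204, followed by the same lines at 4 h after dexamethasone, at 139 ± 58.9 (SD, n = 3). The ranges of these 2 groups overlapped, and the second did not overlap the third, control lines at 4 h after dexamethasone, at 52.9 ± 20.8 (SD, n = 2). The other 5 means were 36.6 to 51.5, with overlapping neighbours. For CKX4 the order began with mock control lines at 4 h, at 129, and ended with the CRL1 lines after dexamethasone, at 32.6 ± 8.23 at 4 h and 26.1 ± 1.97 at 8 h, and all neighbours overlapped. CKX3 ended with the CRL1 lines at 8 h after dexamethasone, at 11.7 ± 1.66, and CKX11 with the same group, at 420 ± 86.6. That last group did not overlap its neighbour for CKX11, whereas for CKX3 it overlapped the control lines at 8 h after dexamethasone.

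Across the 20 arrays CKX5 had negative correlations with the other members, which were weaker by rank for CKX3 and CKX11. On log2 values they were -0.72 with CKX4 (Pearson; Spearman -0.76), -0.54 with CKX3 (Spearman -0.32) and -0.49 with CKX11 (Spearman -0.28). Among the other members Pearson and Spearman values were 0.63 and 0.53 for CKX3 and CKX11, 0.44 and 0.51 for CKX4 and CKX3, and 0.20 and 0.35 for CKX4 and CKX11. The arrays share lines, treatments and times, so these are descriptions of the same 20 points.

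Among 2297 named genes, the 3 most like CKX5 over the 20 arrays were the glucanase gene GLU8 (r = 0.92), the quiescent-centre homeobox gene QHB (r = 0.90) and RK4 (r = 0.88). Their log2 changes in the CRL1 lines at 8 h were 2.56, 3.52 and 0.67, all called. Those arrays are among the 20 from which these genes were picked, so the calls are not a separate result. The least like were IRL4 (r = -0.91), the tubby-like gene TULP14 (r = -0.89) and the zinc transporter gene ZIP3 (r = -0.88). The genes most like CKX4 were FON1, a receptor kinase gene of shoot and floral meristems (r = 0.89), CASPL4B2 (r = 0.88) and WOX11, which encodes a WUSCHEL-related homeobox protein active in emerging crown roots (r = 0.85). WOX11, like CKX4, was not called at 8 h, at -1.28 ± 0.50 (adjusted p = 0.163, limma). At the other end for CKX4 stood EXP5 (r = -0.83), GRF10 (r = -0.83) and CKI1 (r = -0.81).

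The genes most like CKX3 were OSH3, a class I KNOX homeobox gene of the shoot meristem (r = 0.87), the aquaporin gene PIP2-4 (r = 0.85) and the peroxidase gene LOC4339222 (r = 0.84). OSH3 was called lower in the CRL1 lines at 8 h, at -1.32 ± 0.27 (adjusted p = 0.00621, limma). Here too the arrays also served to pick the gene, so this call is not a separate result. The least like CKX3 were the homeobox gene hox14 (r = -0.77), BBD1 (r = -0.76) and the auxin response factor gene ARF7 (r = -0.76). For CKX11 the highest were GPI-A (r = 0.85), MYBS1 (r = 0.80) and the amylase gene AMY1.5 (r = 0.80), and the lowest were AGO4A (r = -0.88), MCM6 (r = -0.83) and again hox14 (r = -0.81).

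Tissue markers moved in the same arrays. In the CRL1 lines at 8 h 3.47% of all probe sets were called higher and 2.91% lower. The summed signal of the 6 shoot meristem and stem genes was 854 to 1169 on dexamethasone arrays of the CRL1 lines at 8 h, against 1325 to 1597 on mock arrays, and 1 of the 6, OSH3, was called lower. The control lines at 8 h had overlapping sums of 1315 to 2253 after dexamethasone and 1949 to 1956 after mock. For the 4 root genes tested the sum in the CRL1 lines was 173 to 177 after dexamethasone, against 253 to 462 after mock. Of these 1 of 4, the manganese transporter gene NRAMP5, was called lower, at -1.42 ± 0.16. The root sum in the control lines at 8 h was 256 to 564 after dexamethasone and 448 to 1090 after mock. The median log2 change of the root genes was -0.39 in the CRL1 lines and -0.90 in the control lines. The 4 leaf genes measured, 3 of them tested, had 10736 to 10848 after dexamethasone and 9436 to 12103 after mock. The 5 genes of dividing cells had 1945 to 3348 and 1987 to 2812, with none called in either list. The 8 vascular genes had 2023 to 2655 after dexamethasone and 2290 to 3221 after mock at 8 h. Of these 1 of 8, the sucrose transporter gene SUT2 (LOC4331221), was called higher at 0.57 ± 0.16 (adjusted p = 0.0437, limma). The other gene listed as SUT2, LOC9266530, had the other sign, at -0.36 ± 0.15, and was not called. The median log2 change of the 8 vascular genes was -0.45. At 4 h they had 2558 to 2806 and 3135 to 3533, with none called. The vascular sums of the control lines at 4 h were 2370 to 2794 after dexamethasone and 2665 to 3055 after mock. The 5 crown root genes had 343 to 492 after dexamethasone and 332 to 380 after mock at 8 h, with QHB called higher and RR2 and SHR1 (-0.62 ± 0.18, adjusted p = 0.0492) called lower. The part of these tissues in the CKX values was not tested.

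Of the rest of the cytokinin pathway, the genes found by name were read, 25 tested of 26 with a probe set and 37 in the RefSeq table. In the CRL1 lines at 8 h 1 was called higher and 2 lower, and all 3 were response regulators, where 3.47% of all probe sets were called higher and 2.91% lower. Their median log2 change was -0.07, close to the -0.04 of all probe sets. At 4 h limma called none of the 25, with a median of -0.22, and in the control lines none at either time.

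Type-A response regulators are induced by cytokinin and dampen its signal, and 2 of the 6 tested fell at 8 h, beside 2.91% of all probe sets. The values of RR1 and RR5 had the other sign, at 0.80 ± 0.51 and 0.99 ± 0.72, and were not called. RR2, which WOX11 is known to repress in rice, had 55.8, 37.5 and 45.5 on the dexamethasone arrays of CRL1 lines 1, 2 and 3, against 127.0, 110.2 and 99.4 on the mock arrays. The groups stood well apart, and the log2 change was -1.26 ± 0.26 (adjusted p = 0.00793, limma). RR6 had 189.3, 132.7 and 196.6 after dexamethasone, against 409.7, 460.1 and 345.3 after mock. It too showed no overlap, with a log2 change of -1.23 ± 0.28 (adjusted p = 0.0129).

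The values of both regulators at 4 h had the same sign and did not pass the threshold, at -0.71 ± 0.26 for RR2 and -0.75 ± 0.28 for RR6. With line as a block RR2 was called at 4 h (adjusted p = 0.0432, against 0.52 without the block), and at 8 h so was RR4, at -0.88 (0.00266, against 0.341). The control-line changes were -0.27 ± 0.32 for RR2 at 4 h and -0.15 ± 0.57 for RR4 at 8 h. In the control lines at 8 h RR2 had 68.0 and 112.0 after dexamethasone and 59.6 and 122.7 after mock, a log2 change of 0.03 ± 0.32. The CRL1 response of RR2 minus the control response was -1.29 ± 0.41 at 8 h (adjusted p = 0.228), and with line as a block its adjusted p was 0.014. For RR6 it was -1.05 ± 0.44 (adjusted p = 0.423). Without control line 1 these differences were -1.13 (adjusted p = 0.279) for RR2 and -0.64 (adjusted p = 0.59) for RR6.

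Type-B response regulators are the transcription factors of the pathway, and RR24 rose, 1 of 4 tested, beside 3.47% of all probe sets called higher. It had 351.0, 372.7 and 314.3 on the dexamethasone arrays of CRL1 lines 1, 2 and 3 at 8 h, against 168.1, 145.8 and 184.4 on the mock arrays. All dexamethasone values were above all mock values, and the log2 change was 1.05 ± 0.16 (adjusted p = 0.000841, limma). At 4 h it was 0.20 ± 0.16, and in the control lines at 8 h 0.16 ± 0.20. The difference between the responses at 8 h was 0.90 ± 0.26 (adjusted p = 0.157, and 0.0461 with line as a block), and 0.82 without control line 1 (adjusted p = 0.344).

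Of the steps before the response regulators, those measured gave no call. Earlier steps of cytokinin synthesis, its glucosylation and its transport were not measured, as no gene was found under the names searched. LOG and LOGL genes encode enzymes that release active cytokinin from its nucleotide, and of the 8 tested none passed at 8 h. LOGL7 had the smallest p, at 0.66 ± 0.27 (adjusted p = 0.194, limma), with a signal of 386 ± 186 after dexamethasone and 228 ± 18.2 after mock (SD, n = 3). CRL1 line 3 had the highest dexamethasone value, 600.4, against 276.7 and 281.3 in lines 1 and 2, and without it the change was 0.28. LOGL10 stood at -0.96 ± 0.41, with 51.0 ± 21.2 after dexamethasone and 96.5 ± 16.5 after mock, and was called only in some settings, among them line as a block (adjusted p = 0.00931, against 0.211). LOGL3 was called at 4 h with line as a block, at -1.27 (adjusted p = 0.0344, against 1.0). Control lines 1 and 2 had LOGL3 at 389.8 and 44.4 after dexamethasone and 452.3 and 126.8 after mock at 4 h. Their log2 change was -0.85 ± 0.94, and the CRL1 response minus the control response was -0.42 ± 1.21. The control-line change of LOGL10 at 8 h was -0.03 ± 0.50.

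Receptors and phosphotransfer proteins carry the signal from the membrane to the nucleus, and genes put in these classes by name gave no call either. Whether each listed gene, PHP5 among them, has that role was not tested. Of the 4 receptor-class genes tested, CHARK stood at 0.53 ± 0.40 and the histidine kinase gene HK4 at -0.14 ± 0.17 at 8 h, and of the 3 phosphotransfer genes AHP2 stood at 0.08 ± 0.11 and PHP5 at -0.07 ± 0.16.

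**Figure D3:**
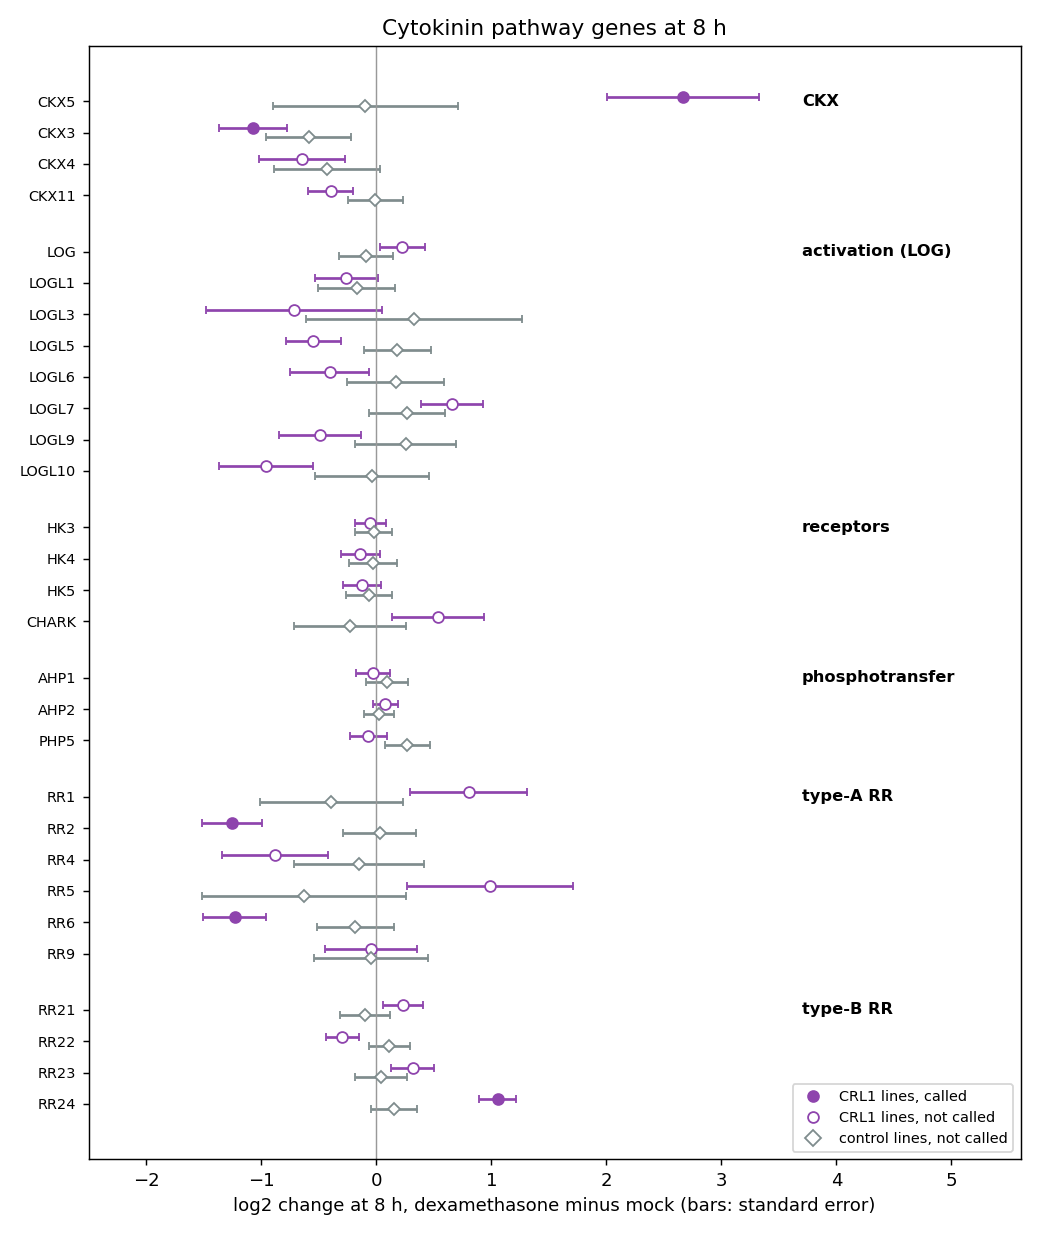
Log2 change after dexamethasone at 8 h in the CRL1 lines (circles) and the control lines (diamonds), as limma estimates with standard errors as bars, of the 4 tested CKX genes and 25 other cytokinin genes, grouped by role. Filled points passed an adjusted p of 0.05: CKX5 at 2.66 and RR24 at 1.05 to the right, and CKX3 at -1.07, RR2 at -1.26 and RR6 at -1.23 to the left.

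The calls of CKX5 and CKX3 rest on 3 lines. Without CRL1 line 1, 2 or 3 the CKX5 change at 8 h was 2.58, 2.17 or 3.25 with an adjusted p of 0.193, 0.348 or 0.0831, and the CKX3 change was -1.20, -0.90 or -1.11 with an adjusted p of 0.15, 0.459 or 0.22, all in limma. The calls of RR2 and RR6 were also lost without any 1 of these lines, with an adjusted p of at least 0.0808 for RR2 and 0.0595 for RR6, as was that of RR24 without line 2 (0.0661). CKX5 passed in all other settings tried (adjusted p of 0.00211 to 0.0384). CKX3 did not pass with an offset at the median signal (-0.70, adjusted p = 0.0657), with no filter (0.0816), with quantile normalization (0.0617) or with only the groups compared (0.0565), and it was too dim for the stricter filter.

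**Figure D4:**
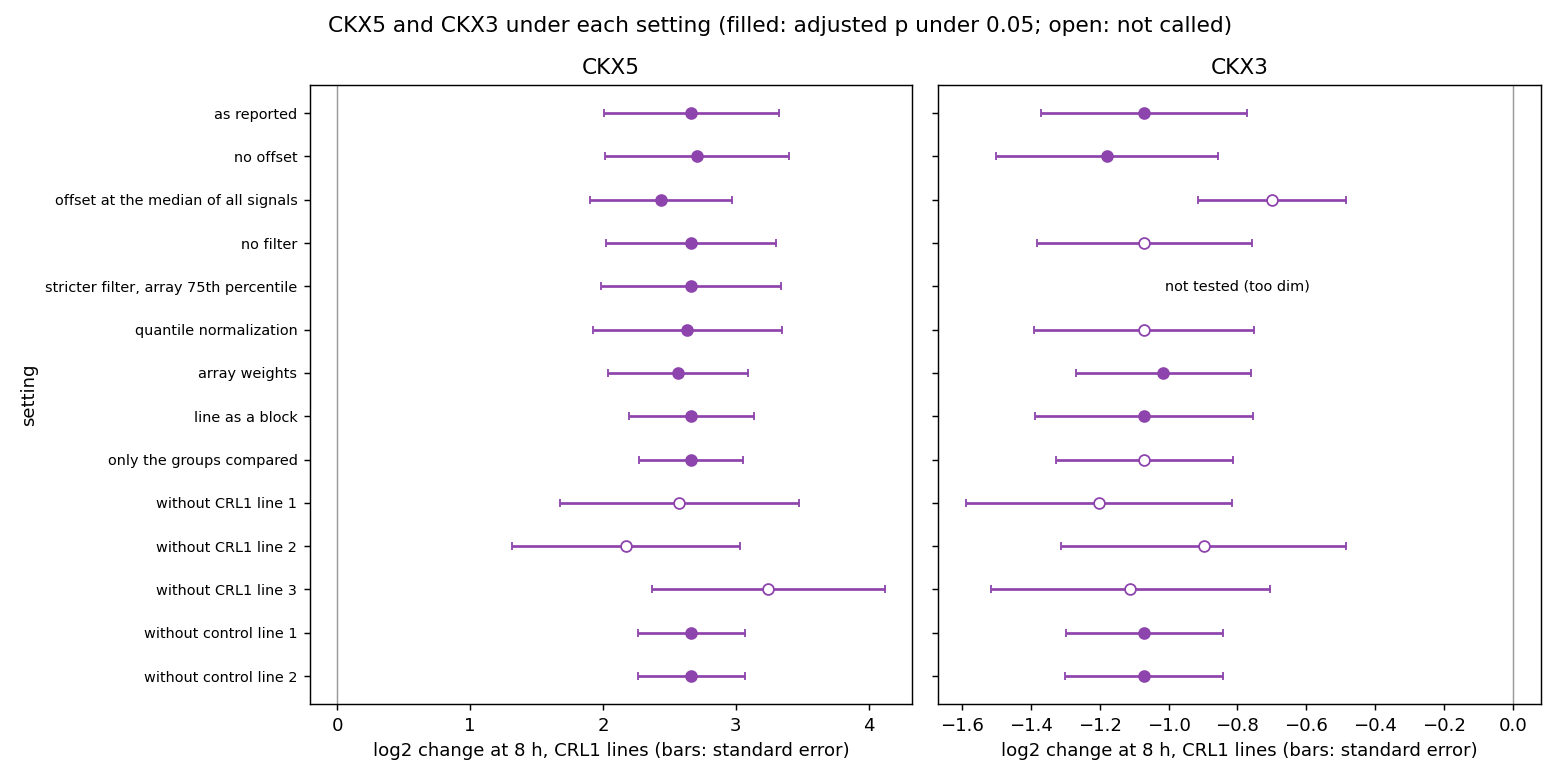
Log2 change of CKX5 and CKX3 after dexamethasone in the CRL1 lines at 8 h under each setting (points, with standard errors as bars); filled points passed an adjusted p of 0.05. CKX5 stays between 2.17 and 3.25 and is open in the 3 settings that leave out a CRL1 line, whereas CKX3 stays between -1.20 and -0.70 and is open in 7 settings.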

How the data were processed

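The deposited values are MAS5 intensity signals made by the authors (MAS5 and Affymetrix Expression Console are named in the submitters' processing notes), with software versions and the genome build not given in the sources used here. Each array's 2% trimmed mean was 100, and no 2 arrays were identical. Of 57381 probe sets 123 controls were left out. The others were paired with 1 gene (22436), several (95) or none listed (34727) by the platform annotation, and named through RefSeq symbols or synonyms (assembly ASM3414082v1).

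Tested probe sets were above the array median on at least 3 arrays. The offset of 1.7 was the 20th percentile of all signals and understates changes of dim transcripts. limma 3.58.1 in R 4.3.3 fitted 8 group means with a trended prior and 12 residual degrees of freedom. It was run on simulated arrays with independent noise and no line effect, which cannot show how the fit behaves with the line effect of these data. For mock arrays, line was a random block (correlation 0.283). A gene was read from its brightest probe set.

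Arrays of 1 transgenic line are paired by the labels. For the CRL1 lines, correlations of array deviations from the group mean were -0.05 to 0.21 for the same line and -0.20 to 0.12 for different lines. For the 2 control lines, whose deviations mirror each other within a group, they were 0.45 to 0.62 and -0.62 to -0.45, and the fit without a block leaves this line effect in the spread. p-values measure the spread between lines. The number of arrays limits the precision.

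Members and lists were chosen with earlier results of these data known. Named genes were the members, the 3 most and 3 least like each, and cytokinin genes called or with the 2 smallest p of a class without a call. Alternatives covered the offset, filter, normalization, array weights, blocking, the arrays fitted and each line left out. Tables were made with pandas 2.3.3 and numpy 2.4.6 under Python 3.11.15, and plots with matplotlib 3.10.9.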

Additional observations from a re-analysis of the deposited data

Results flagged for a closer look

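CKX1 met the rule for opposite signs in the CRL1 and control lines at 8 h, where the mean log2 change of the CRL1 lines minus that of the control lines was -1.65. All its signals were under the array medians, at 0.3 to 0.5 after dexamethasone and 0.7 to 5.7 after mock in the CRL1 lines, and at 0.8 to 8.6 after dexamethasone and 0.4 to 4.9 after mock in the control lines. No direction is read from signals this dim. CKX1 was not among the tested probe sets, and in the fit with no filter the same difference had a standard error of 0.91 and an adjusted p of 0.736 (limma).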

How the results depend on the processing

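Of 597 values of CKX and other cytokinin genes under alternatives, 545 kept their direction and their side of the threshold, 17 lost a call, 8 gained one and 27 changed sign, none of the last called under either setting. The count of CKX genes called in the CRL1 lines at 8 h, 2, was 1 with an offset at the median signal, with no filter, with the stricter filter, with quantile normalization and with only the groups compared, and 0 to 2 with 1 line left out. With 1 line left out, 0 to 1 was called between mock CRL1 and mock control lines. The replicate block changed no CKX call, but raised the probe sets called in the CRL1 lines at 4 h to 296 higher and 58 lower, against 136 and 7, at 8 h to 1737 and 1906, against 1140 and 955, and for the difference of responses at 8 h to 495 and 222, against 187 and 46. Without a CRL1 line the probe sets called in these lines were 348 to 662 higher and 144 to 348 lower at 8 h and 12 to 64 and 0 to 3 at 4 h. Over all alternatives 52 to 495 higher and 3 to 222 lower were called for the difference of responses at 8 h, 0 to 6 higher at 4 h, against 3, 1 to 47 higher and 0 to 11 lower for the 8 h change minus the 4 h change, against 2 and 0, and 0 to 36 higher and 0 to 51 lower between mock times, against 5 and 8. With array weights 332 higher and 82 lower were called in the CRL1 lines at 4 h, and without control line 2, 1 higher and 3 lower in the control lines at 4 h. When a control line was left out, the remaining one was assumed to vary like the other groups. Sign changes among uncalled values were as follows. In the CRL1 lines at 4 h, CKX11 had -0.063 from its dim probe set and -0.063 to 0.263 over left-out lines, and CKX3 -0.483 to 0.079. In the control lines, over left-out lines, CKX5 had -0.019 to 0.553 and CKX4 -1.231 to 0.039 at 4 h, and CKX5 -0.97 to 0.79, CKX11 -0.26 to 0.24 and CKX3 -1.61 to 0.43 at 8 h. There CKX5 had 0.054 with an offset at the median and CKX11 0.021 with quantile normalization. For the difference of responses, over left-out lines, CKX4 had -0.78 to 0.49 and CKX3 -0.12 to 0.44 at 4 h, and CKX4 -0.452 to 0.015 and CKX3 -1.50 to 0.54 at 8 h. For the 8 h change minus the 4 h change CKX4 had -0.028 with array weights and -0.14 to 0.42 over left-out lines. Between mock times these were -0.18 to 0.05 for CKX5 and -0.055 to 0.096 for CKX11. Between mock lines CKX5 had -0.34 with array weights and -0.46 to 0.93 over left-out lines, CKX11 -0.28 to 0.14, and CKX3 0.051 with quantile normalization and -0.37 to 0.20. The cause of these changes was not tested. Signals near the array medians, as for CKX3, limit what the offset and the filter leave measurable.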
